A study of Sus scrofa with 6 samples.

Results

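Tissue factor (F3) and plasminogen activator inhibitor 2 (SERPINB2) were followed in the left atria of pigs with mitral regurgitation, with and without valsartan, and of normal controls. Each gene had 1 probe set on the porcine Affymetrix array whose annotation names that symbol alone, so the members are 2 of the 24123 probe sets in the table. Both were chosen by their intensities in these same arrays, selected on a much lower signal in MRV than in MR atria. The comparison of valsartan-treated with untreated regurgitation is therefore given as a description without a test, and the comparisons with normal controls share arrays with it.

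RNA came from 6 male Lanyu miniature pigs aged 18 months, with 1 array per animal and 2 animals per group. MRV animals had mitral regurgitation, a leak of blood from ventricle back to atrium, made through a 2.8 mm hole in the posterior leaflet, and took valsartan at 3.43 mg/kg/day starting 1 week ahead of surgery. MR animals carried that lesion without the drug, and both lesioned groups were killed 12 months after surgery. NC animals were age-matched normal controls with no operation or drug recorded, so lesion and surgery cannot be told apart in any comparison with NC. Valsartan blocks the type I angiotensin II receptor.

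Tissue factor is a membrane protein that binds clotting factor VII and thereby starts the extrinsic pathway, which ends in thrombin and fibrin. Heart muscle is one of the organs rich in it, and angiotensin II is known to induce it in vascular cells and monocytes. SERPINB2 is a serpin that inhibits urokinase and tissue plasminogen activator, the enzymes that make plasmin and so dissolve fibrin; much of it stays inside the cell, and monocytes, keratinocytes and placenta are known sources. The genes thus act on opposite ends of fibrin turnover, one on its formation and the other on its removal.

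Values are probe set intensities on a linear scale as the authors deposited them, and log2 differences are on the log2(intensity + 16) scale. The arrays had medians from 90.2 to 93.4. The atrial markers NPPA and MYL4 were bright on every array, at 18414 or more and 21034 or more. The F3 probe set is tied in the annotation to a RefSeq messenger RNA of the gene. The SERPINB2 probe set is tied to a single expressed sequence tag, so the identity of its signal rests on the annotation of that tag. No other probe set was there to check either gene.

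F3 read 189.0 and 283.6 in MRV atria, 1098.6 and 882.4 in MR atria, and 578.2 and 723.4 in NC atria. The 3 groups did not overlap: both MRV arrays lay lowest, both MR arrays highest, and the NC arrays between them. The means were 236 ± 66.9 in MRV, 990.5 ± 153 in MR and 651 ± 103 in NC (SD, n = 2 each). The MRV mean was 0.239 times the MR mean, a log2 difference of -2.01. Between single animals that ratio ran from 0.172 to 0.321, so the MRV and MR animals nearest to each other still differed by 1.58 on the log2 scale. Of the 5408 genes tested, F3 had the 4th most negative difference in MRV minus MR.

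SERPINB2 read 752.8 and 768.4 in MRV atria, 1610.7 and 1465.3 in MR atria, and 1095.4 and 1395.1 in NC atria. The groups again did not overlap, with MRV lowest and MR highest, although the higher NC animal lay close to the lower MR animal. The means were 761 ± 11.03 in MRV, 1538 ± 103 in MR and 1245 ± 212 in NC (SD, n = 2 each). The MRV mean was 0.495 times the MR mean, a log2 difference of -0.999, and the ratio ran from 0.467 to 0.524 between single animals. SERPINB2 had the 42nd most negative difference of the 5408 genes. Because the contrast chose both genes, their separation in it supports nothing further; for comparison, 28.7% of all genes tested had MRV wholly below MR, and 0.703% did so with a difference of at least 2-fold on the log2 scale.

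**Figure D1:**
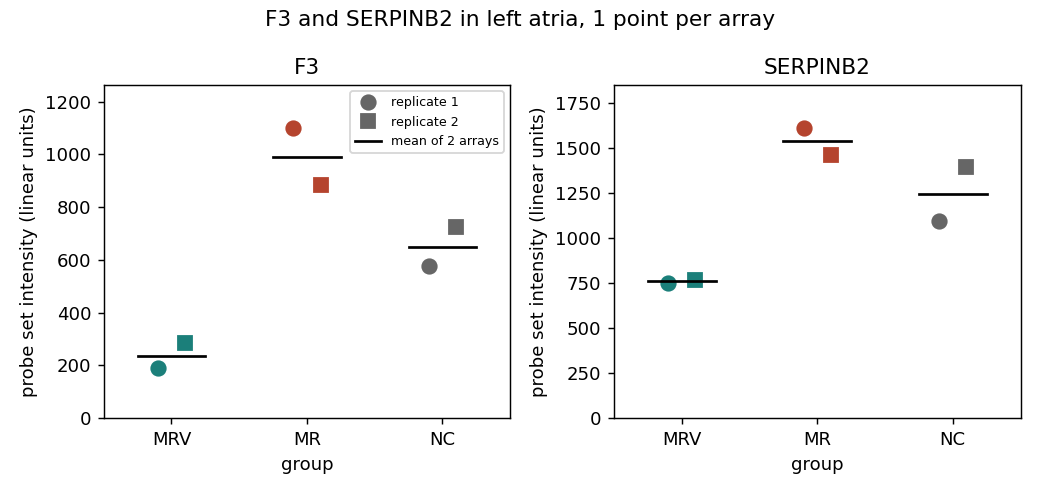
Probe set intensity (linear units) of F3 (left) and SERPINB2 (right) by group, with 1 point per array and a bar at the mean of the 2 arrays. F3 lies between 189.0 and 283.6 in MRV and at 882.4 or above in MR; SERPINB2 lies at 752.8 and 768.4 in MRV and at 1465.3 or above in MR, with NC between the other groups for both genes.

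The comparison of MR with NC set lesioned, operated animals without the drug against animals with no operation recorded. F3 averaged 1.52 times as much in MR as in NC, a log2 difference of 0.59 (SE 0.23, 95% interval 0.031 to 1.16). The difference did not pass limma's test across 14400 probe sets (adjusted p = 0.999955, unadjusted p = 0.0418), while both MR animals were above both NC animals. SERPINB2 averaged 1.24 times as much in MR as in NC, a log2 difference of 0.31 (SE 0.15, 95% interval -0.048 to 0.67). It did not pass either (limma adjusted p = 0.999955, unadjusted p = 0.0783), and its nearest MR and NC animals were 0.070 apart on the log2 scale. The SERPINB2 difference rested on the NC animals, being 0.14 without NC replicate 1 and 0.48 without NC replicate 2. The groups had no overlap with MR above NC for 15.7% of all genes, so the order alone is common. Of all probe sets tested, 0.00694% passed, which is 1, that of asparagine synthetase (ASNS, named after its value was seen).

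The comparison of MRV with NC set treated lesioned animals against animals without a lesion. F3 averaged 0.363 times as much in MRV as in NC, a log2 difference of -1.42 (SE 0.23, 95% interval -1.98 to -0.86). The interval, which is not adjusted for the number of probe sets, excluded 0, but the difference did not pass across all probe sets (limma adjusted p = 0.709, unadjusted p = 0.000915). SERPINB2 averaged 0.611 times as much in MRV as in NC, a log2 difference of -0.69 (SE 0.15, 95% interval -1.05 to -0.33), and did not pass (limma adjusted p = 0.782, unadjusted p = 0.00348). Both MRV animals were below both NC animals for each gene, as for 21.8% of all genes. In MRV minus NC, 0% of the probe sets passed the threshold, while 762 had an unadjusted limma p under 0.05. Choosing genes for a low MRV and a high MR signal favours a low value in MRV minus NC and a high one in MR minus NC, so neither is independent of the choice.

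**Figure D2:**
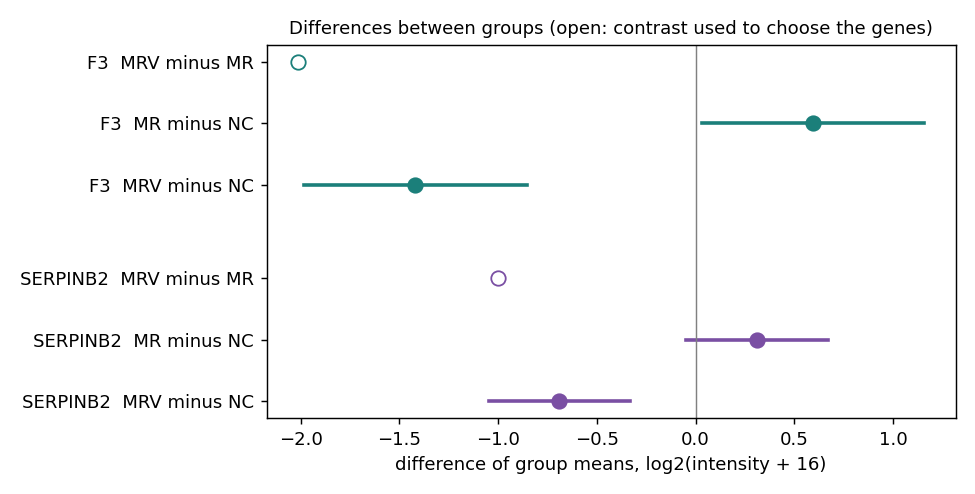
Difference of group means on the log2(intensity + 16) scale for F3 and SERPINB2 in the 3 comparisons, with unadjusted 95% limma intervals for the comparisons that did not choose the genes (filled) and none for MRV minus MR (open). F3 stands at -2.01, 0.59 and -1.42 and SERPINB2 at -0.999, 0.31 and -0.69, from top to bottom.

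The 6 arrays ranked alike for both genes, from MR replicate 1 through MR replicate 2, NC replicate 2, NC replicate 1 and MRV replicate 2 down to MRV replicate 1. The same order was found for 22 of 5408 genes, F3 and SERPINB2 included. There were 157 genes (2.90%) with both MR arrays above both NC arrays and those above both MRV arrays. Choosing both genes for a low MRV and a high MR signal favours MR first and MRV last. The shared order is therefore not independent of the choice. The genes differed in spread: the MRV animals lay close together for SERPINB2, at 752.8 and 768.4, and further apart for F3, at 189.0 and 283.6. In bulk tissue, fewer cells that make a transcript and less transcript per cell cannot be told apart.

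Other genes of clotting were looked at as a list, of which 21 of 34 had a probe set with a single symbol and 10 passed the filter on dim probe sets, F3 among them. The other 9 had a median log2 difference of -0.047 in MRV minus MR, against -0.031 over all genes, with 6 lower and 3 higher. In 4 of the 9, MRV lay wholly below MR, where 28.7% of all genes did. None of the 9 passed limma's test in any comparison. Of the 9, 1 had an unadjusted p under 0.05 in MRV minus MR, MCFD2 (a factor for secretion of factors V and VIII, at -0.33), where 7.88% of all genes had one in either direction. In MRV minus NC 2 of the 9 had one, PROCR and MCFD2, both lower, against 5.62% of all genes. In MR minus NC 0 had, against 4.49%. The direction of the list depended on the setting: with F3 counted, 7 of 10 were lower in MRV than in MR, against 5 of 10 with the actin ratio as a covariate, where the median was 0.044.

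The endothelial protein C receptor gene (PROCR), which helps to activate the anticoagulant protein C, had the lowest MRV minus MR difference among those 9. It read 732.5 and 854.8 in MRV, 1100.1 and 1136.7 in MR, and 2398.3 and 1184.3 in NC. MRV lay below both other groups, and NC replicate 1 stood far above the other arrays. The log2 differences were -0.49 in MRV minus MR (limma adjusted p = 0.772) and -1.08 in MRV minus NC (limma adjusted p = 0.904). With the 3' to 5' actin ratio of the arrays as a covariate, the MRV minus MR difference turned to 0.090. Thrombomodulin (THBD), the thrombin receptor of the same anticoagulant pathway, read 396.0 and 507.7 in MRV, 346.2 and 462.7 in MR, and 420.4 and 443.3 in NC, with overlap in all comparisons. Its log2 difference of 0.16 in MRV minus MR (limma adjusted p = 0.876) was the highest of the list, and turned to -0.043 without MR replicate 1 and to -0.015 without MRV replicate 2.

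TFPI, the main inhibitor of the tissue factor and factor VII complex, was below the filter and read from 33.3 to 42.5 over the 6 arrays. Its relative TFPI2 read 609.1 and 787.0 in MRV, 589.3 and 836.5 in MR, and 697.5 and 550.4 in NC, overlapping throughout. Von Willebrand factor (VWF), the platelet tether made by endothelium, read 710.6 and 695.8 in MRV, 783.9 and 920.6 in MR, and 787.3 and 687.2 in NC. MRV lay below MR for this VWF probe set but overlapped NC. Another, dimmer VWF probe set differed by 0.12 in MRV minus MR, with overlap. Factor VIII (F8) read between 62.5 and 103.8, with overlapping groups. F5, F9, F12, FGB, FGG and KLKB1, which encode clotting factors, fibrinogen chains and prekallikrein made mainly by the liver, were below the filter and read at most 29.0 on any array. Those of factors VII and X, the direct partners of tissue factor, were not analysed here for want of a singly annotated probe set.

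Of the fibrinolysis list, 12 of 18 genes had a single-symbol probe set and 10 passed the filter, SERPINB2 among them. The other 9 had a median log2 difference of -0.028 in MRV minus MR, with 8 lower and 1 higher, where 57.6% of all genes were lower. In 2 of the 9 MRV lay wholly below MR, against 28.7% of all genes. With SERPINB2 counted, 9 of 10 were lower, but 6 of 10 with quantile normalization or without MR replicate 2. Their median in MR minus NC was 0.18, against 0.0076 over all genes, with 5 higher and 4 lower. None passed limma's test in any comparison. Of the 9, 0 had an unadjusted p under 0.05 in MRV minus MR. In MR minus NC 1 had, SERPINE2 (higher), and in MRV minus NC SERPINE2 (higher) and VTN (lower). The shares of all genes in either direction were 7.88% in MRV minus MR, 4.49% in MR minus NC and 5.62% in MRV minus NC.

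For the enzymes that SERPINB2 inhibits, the groups lay closer together. Tissue plasminogen activator (PLAT) read 480.1 and 650.9 in MRV, 579.2 and 744.5 in MR, and 579.4 and 475.6 in NC. Urokinase (PLAU) read 127.6 and 119.0 in MRV, 111.8 and 141.8 in MR, and 95.5 and 110.5 in NC. For both enzymes MRV and MR overlapped, with log2 differences of -0.23 (limma adjusted p = 0.835) for PLAT and -0.029 (limma adjusted p = 0.973) for PLAU. Plasminogen (PLG), which the liver makes, was below the filter at 30.3 to 35.4.

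SERPINE2 (protease nexin 1), an inhibitor of thrombin and of plasminogen activators, read 811.2 and 1252.2 in MRV, 1005.6 and 1027.4 in MR, and 677.9 and 647.5 in NC. Both lesioned groups lay above NC, by log2 differences of 0.61 in MR and 0.59 in MRV, while MRV and MR overlapped. S100A10, part of a cell surface receptor for plasminogen, read 1328.2 and 1684.9 in MRV, 1845.9 and 2025.4 in MR, and 2004.8 and 1445.3 in NC, with a log2 difference of -0.37 in MRV minus MR (limma adjusted p = 0.757). Its partner ANXA2 overlapped between groups, with a difference of -0.14. The protease inhibitor A2M had the list's highest difference in MRV minus MR, 0.20 (limma adjusted p = 0.963), with readings of 279.0 and 909.6 in MRV and 724.0 and 261.8 in MR against 540.8 and 904.3 in NC. That difference turned to -0.50 without MR replicate 2 and to -0.62 without MRV replicate 2. Another, dimmer A2M probe set differed by 0.022 in MRV minus MR, with overlap. The urokinase receptor gene PLAUR lacked a singly annotated probe set and was not analysed here.

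**Figure D3:**
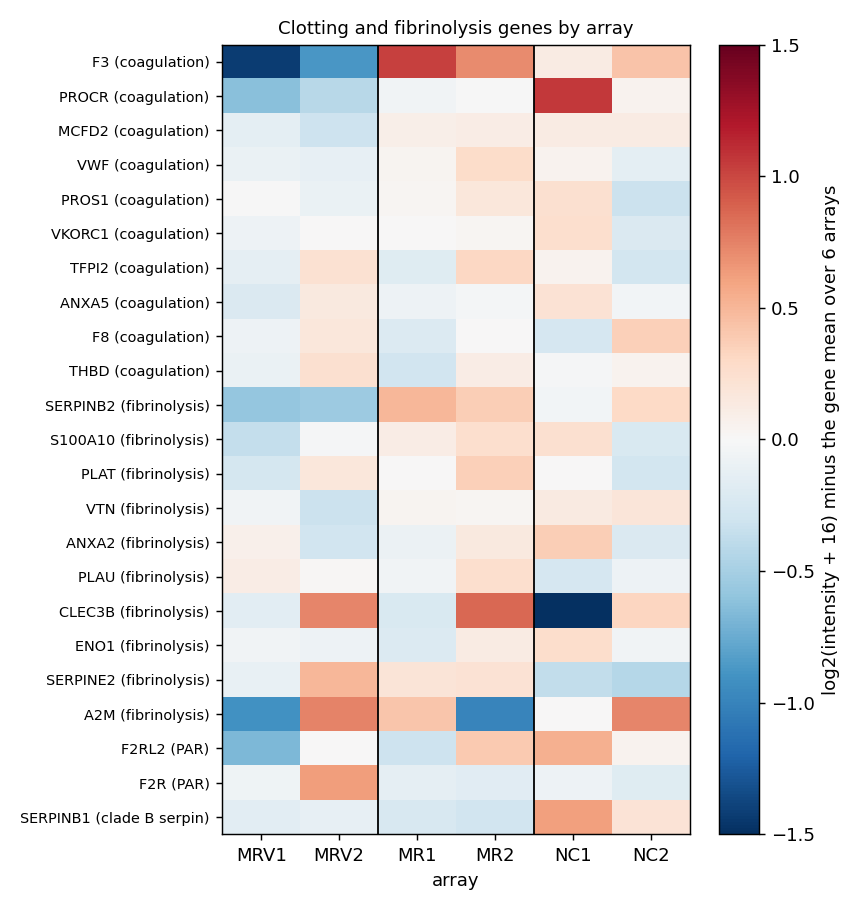
Each row is a gene of the clotting, fibrinolysis, protease-activated receptor (PAR) or clade B serpin list that passed the filter, and each column an array; colour gives log2(intensity + 16) minus the gene's mean over the 6 arrays. F3 and SERPINB2, which were chosen for it, are low on both MRV arrays and high on both MR arrays. MRV also lies wholly below MR for PROCR, VWF, PROS1, MCFD2, S100A10 and VTN, and wholly above it for F2R and SERPINB1. PLAT, PLAU, TFPI2 and THBD are among the genes that overlap between MRV and MR.

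Of the protease-activated receptors, through which thrombin and the tissue factor complex signal to cells, 2 of 4 were measured. The thrombin receptor gene F2R read 641.1 and 1039.8 in MRV, 609.3 and 593.0 in MR, and 635.3 and 591.6 in NC. MRV lay above both other groups, largely through MRV replicate 2, with a log2 difference of 0.43 in MRV minus MR (limma adjusted p = 0.750). F2RL2 read 467.4 and 757.9 in MRV, 606.3 and 997.0 in MR, and 1103.6 and 781.7 in NC, and MRV overlapped MR. Of the other clade B serpins, the family of mostly intracellular inhibitors to which SERPINB2 belongs, SERPINB1 alone passed the filter. SERPINB1, an inhibitor of neutrophil proteases, read 229.9 and 236.1 in MRV, 216.2 and 208.6 in MR, and 405.2 and 300.1 in NC. It was lower in MR than in NC by a log2 difference of -0.68 (limma adjusted p = 0.999955), the opposite sign to SERPINB2, and 0.12 higher in MRV than in MR. SERPINB7 and SERPINB11 read below 10 on every array.

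Transcription factors known to act on the promoters of these genes were listed together with NFKBIA, an inhibitor of NF-kB. Of the 19 list members 12 were measured and 9 passed the filter. No NF-kB subunit was among the 9: NFKB1 was below the filter, and NFKB2, RELA, RELB and REL lacked a singly annotated probe set. In MRV minus MR the median of the 9 was 0.0075, with 5 higher and 4 lower, and -0.014 when arrays were centred on their medians. In MR minus NC it was -0.38, with 7 lower, and in 5 of the 9 MR lay wholly below NC, where 12.4% of all genes did. None passed limma's test, and 2 of the 9 had an unadjusted p under 0.05 in MR minus NC, both lower, against 4.49% of all genes. There was 1 such gene in MRV minus MR and there were 3 in MRV minus NC, all lower. The shares of all genes in either direction were 7.88% and 5.62%.

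EGR1, a zinc finger factor that can activate F3, read 517.4 and 481.7 in MRV, 407.2 and 604.8 in MR, and 786.8 and 803.7 in NC. Both lesioned groups lay below NC and overlapped each other, with log2 differences of 0.0075 in MRV minus MR and -0.66 in MR minus NC. Other EGR1 probe sets differed by 0.45 and 0.13 in MRV minus MR and by -1.02 and -1.07 in MR minus NC. The order of the groups thus differed from that of F3, for which MR was highest. FOS, a component of the AP-1 factor, read 584.9 and 263.1 in MRV and 160.5 and 574.5 in MR, against 683.4 and 694.1 in NC. ATF3, a stress-induced factor that can pair with AP-1 proteins, read 89.1 and 49.0 in MRV, 264.7 and 356.8 in MR, and 1099.5 and 408.8 in NC. Its groups did not overlap, with MRV lowest and NC highest. Its differences of -1.97 in MRV minus MR (limma adjusted p = 0.529) and -3.06 in MRV minus NC (limma adjusted p = 0.709) were the most negative of the list. NFKBIA, a target and inhibitor of NF-kB, overlapped between MRV and MR, at 1567.3 and 1287.4 in MRV and 1281.8 and 1610.3 in MR.

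Of known inducers and their receptors, 18 of 23 genes passed the filter, with a median of 0.069 in MRV minus MR, 7 lower and 11 higher. Without MR replicate 1 the median was -0.037, with 11 lower and 7 higher. None passed limma's test. In MRV minus MR and in MR minus NC 1 of them had an unadjusted p under 0.05 in each direction, and in MRV minus NC 0 had, where the shares of all genes in either direction were 7.88%, 4.49% and 5.62%. These were the endothelin gene EDN1, at -0.53 in MRV minus MR and 0.53 in MR minus NC, and its receptor gene EDNRA, at 0.59 and -0.62, in comparisons that share the MR arrays. The angiotensin receptor gene AGTR1, whose product valsartan blocks, read 468.8 and 414.3 in MRV, 352.1 and 518.2 in MR, and 599.0 and 588.3 in NC. MRV and MR overlapped, and both lay below NC. AGT, the precursor of angiotensin II, read 2433.5 and 3085.4 in MRV, 1887.3 and 1096.8 in MR, and 4208.7 and 1803.3 in NC, with the list's highest difference in MRV minus MR, 0.92 (limma adjusted p = 0.727). The endotoxin receptor gene TLR4 had the lowest, -0.54 (limma adjusted p = 0.757), which turned to 0.23 with the actin ratio as a covariate, and another TLR4 probe set differed by -0.11. TNF stayed between 73.6 and 83.9 and IL1B between 63.7 and 79.0 over the 6 arrays.

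Likeness to F3 was measured as the root mean square difference between log2 profiles over the 6 arrays, each centred on its mean, so genes with an equally low MRV signal come first by construction. The nearest 5 of 5407 genes were CITED1, DDAH1, SPP1, UCHL1 and IER3, at distances from 0.28 to 0.44. CITED1, a transcriptional coregulator, read 132.7 and 244.5 in MRV, 495.2 and 549.5 in MR, and 394.1 and 476.2 in NC. DDAH1, whose product breaks down a methylarginine that blocks nitric oxide formation, read 97.5 and 96.2 in MRV, 298.8 and 258.7 in MR, and 147.4 and 226.0 in NC. These genes shared the group order of F3 without overlap. The secreted matrix protein gene SPP1 (osteopontin), the neuronal ubiquitin hydrolase gene UCHL1 and the early response gene IER3 were also lower in MRV than in MR without overlap, with MR and NC overlapping. SERPINB2 was the 7th nearest to F3, at 0.46.

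SERPINB2 had closer neighbours. FHL1, a LIM domain protein of the sarcomere, was nearest, at a distance of 0.039. FHL1 read 6865.5 and 7073.2 in MRV, 13581.4 and 13183.3 in MR, and 9944.3 and 12170.7 in NC, with the array order of SERPINB2. Its log2 differences of -0.94, 0.28 and -0.66 lay beside -0.999, 0.31 and -0.69 for SERPINB2 in MRV minus MR, MR minus NC and MRV minus NC. The next were CKMT2, the mitochondrial creatine kinase of muscle, at 0.13, MYOT (myotilin), a Z-disc protein gene, at 0.14, SELENOW, a selenoprotein gene, at 0.14, and LOC100157017, at 0.16. All 5 were lower in MRV than in MR and NC without overlap. F3 was 3118th nearest to SERPINB2, its differences between arrays being wider. The SERPINB2 probe set rests on a single expressed sequence tag, and its profile nearly matched that of FHL1, a muscle gene. Whether its signal comes from the SERPINB2 transcript was not tested.

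**Figure D4:**
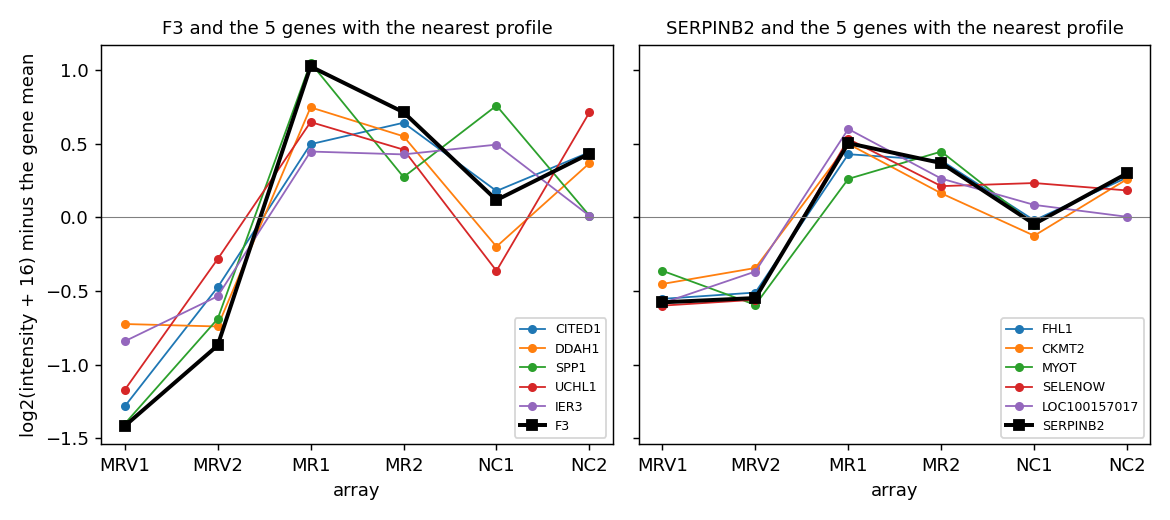
Log2(intensity + 16) minus each gene's mean, by array, for F3 with its 5 nearest genes (left) and SERPINB2 with its 5 nearest genes (right). The SERPINB2 and FHL1 lines lie almost on each other, 0.039 apart on root mean square, whereas the genes nearest to F3 lie from 0.28 to 0.44 away from it.

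The summed markers of some cell types were lower in MRV than in MR, as F3 and SERPINB2 were, and their part in the result was not tested. Those of fibroblasts, adipocytes and atrial muscle overlapped between MRV and MR, although some of their members did not. In the atrial list NPPB read 4075.7 and 4644.3 in MRV, 8080.7 and 8252.8 in MR, and 4509.6 and 4095.1 in NC. GJA5 was also lower in MRV than in MR without overlap, NPPA was higher, and MYL4 and SLN overlapped. Of the fibroblast markers, POSTN, FBLN1 and LUM were lower without overlap, DCN was higher, and the others overlapped. Among adipocyte markers only LIPE did not overlap, being higher. The summed intensity of the 4 measured ventricular markers, of 5 in the list, was 29846 to 29943.5 in MRV, 34386 to 42413 in MR and 29473 to 32029 in NC. The member that differed most was MYL2, the ventricular regulatory light chain, at 151.5 and 954.3 in MRV, 10693.3 and 2318.4 in MR, and 203.0 and 325.1 in NC. MYL3 was also lower in MRV than in MR without overlap, whereas MYH7 and HEY2 overlapped. The sum of 6 of 8 smooth muscle markers was 15886 to 16605 in MRV, 17951 to 18059 in MR and 17796 to 18831 in NC. DES, a muscle filament gene shared with heart muscle, made up the largest part of it, at 7703.3 and 8375.5 in MRV, 9230.7 and 8932.0 in MR, and 8865.7 and 8555.8 in NC. CNN1, TAGLN and CALD1 were also lower in MRV than in MR without overlap, whereas SMTN was higher without overlap (log2 difference 0.23) and ACTA2 overlapped (0.017). The sum of 2 of 5 Schwann cell markers was 452 to 597 in MRV, 675 to 686.5 in MR and 549 to 591 in NC. Of the 2, S100B was lower in MRV than in MR without overlap, and SOX10 overlapped. MRV lay below MR for all 3 sums, as for F3 and SERPINB2, and below NC for the smooth muscle sum as well. No marker measured was at 0.

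Known cell sources of the genes gave these readings. The sum of 4 of 10 monocyte and macrophage markers overlapped fully, at 416 to 684 in MRV, 409 to 673 in MR and 473 to 644.5 in NC, and CD14 lay below the filter at 49.4 to 52.1. The sum of 8 of 10 endothelial markers was 2945 to 3393 in MRV, 3192 to 3469 in MR and 3277 to 3326 in NC. The sum of 3 of 10 platelet markers was 412 to 447 in MRV, 379 to 420 in MR and 402 to 404 in NC. No neutrophil marker passed the filter, with S100A8 at 25.8 to 33.5. The epicardial list had 1 gene above it, TCF21, at 202.0 and 249.4 in MRV, 139.4 and 149.4 in MR, and 238.6 and 146.0 in NC. Its members below the filter shared no direction. KRT8 read 35.1 and 35.6 in MRV, 58.1 and 64.2 in MR, and 46.3 and 40.2 in NC. KRT19 was also lower in MRV than in MR without overlap, WT1 and CALB2 were higher, and KRT18 overlapped.

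A measure of RNA quality also differed between MRV and MR, while MRV and NC overlapped. The ratio of 3' to 5' signal of an actin control, a sign of degradation when high, was 2.30 and 1.87 in MRV, 1.44 and 1.70 in MR, and 1.61 and 1.91 in NC. The signal of that control was itself lower in MRV. Its middle part read 4203.7 and 7689.2 in MRV, 12709.6 and 11788.4 in MR, and 11100 and 9685.9 in NC. The corresponding ratio of a second actin control was 6.46 and 11.6 in MRV, 8.10 and 9.11 in MR, and 9.72 and 6.96 in NC, and the GAPDH ratio was 1.53 to 1.59 throughout. With the first ratio as a covariate, chosen after the data had been seen, the MRV minus MR difference was -1.70 for F3 and -1.08 for SERPINB2.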

How the data were processed

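Left atrial RNA was measured with 1 array per animal, 6 arrays in all. The authors deposited 1 normalized linear intensity per probe set and array, from 4.8 to 27167; MAS5 and RMA are listed, without versions, per the submitters' processing notes, but not which of them made the table. Groups and replicate numbers come from the titles. The p-values set group differences against the spread between animals of a group, pooled over all groups and moderated across probe sets. The number of arrays, 2 per group, limits precision. Tests left out 124 control probe sets. Probe sets with a mean below the 40th percentile (61.4) were not tested, which left 14400. Platform annotation gave 1 symbol to 10069 probe sets, several to 198 and none to 13732; 9961 matched RefSeq by Entrez ID and 0 symbols changed. The brightest tested probe set stood for each of 5408 genes. Values were fitted as log2(intensity + 16) with lmFit and eBayes of limma 3.58.1 (R 4.3.3) on all 6 arrays with group means, with Benjamini-Hochberg adjustment over all probe sets and a threshold of 0.05. An exact two-sided permutation test of 2 against 2 cannot go below p = 0.333 and was not used. The fit was tested on simulated data. Named genes were the members, 12 genes given wherever measured, any gene past the threshold and the extremes of the 6 pathway lists in MRV minus MR, and the 5 nearest profiles per member; further list members were named after their values were seen. Members and lists, including 11 of cell markers, were chosen with earlier results of these data known. No coordinates or sequences are given, since the annotation names no genome build. Alternatives covered the pseudocount, the filter, the normalization, the model, the replicate number and each array.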

Additional observations from a re-analysis of the deposited data

How the results depend on the processing

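F3 and SERPINB2 kept the direction of all 6 differences under every alternative run, and none of the 4 tested differences passed the threshold under any. F3 in MRV minus MR lay between -2.29 and -1.70 over all alternatives, and between -2.29 and -1.74 when single arrays were left out. SERPINB2 in MRV minus MR lay between -1.07 and -0.93 without single arrays and at -1.08 with the actin ratio as a covariate, an alternative added after the data had been seen and the 1 that moved it by more than the spread between replicates. In MRV minus NC without single arrays, F3 ran from -1.69 to -1.15 and SERPINB2 from -0.86 to -0.52. In MR minus NC, F3 ran from 0.44 to 0.75 and SERPINB2 from 0.14 to 0.48. The adjusted p of F3 in MRV minus NC ranged from 0.177 to 0.99972. The 1 probe set called in MR minus NC became 0 with a pseudocount of 1, with no filter, with quantile normalization, with only the 2 groups compared, with an intensity trend, with the actin ratio as a covariate and without any single array (0 to 0). The labels share replicate numbers but do not say that these pair animals. The differences between replicate 1 and replicate 2 across probe sets correlated at 0.019 between MRV and MR, 0.34 between MR and NC and 0.20 between MRV and NC. With the replicate number as a block, 2 probe sets without a symbol were called in MRV minus MR, 0 in MR minus NC and 0 in MRV minus NC, and the F3 and SERPINB2 differences were as without it (-1.42 and -0.69 in MRV minus NC). Of 1200 values of other named genes, 39 moved by more than the spread between replicates and 42 changed sign. The causes of these shifts were not tested. A pseudocount of 16 understates differences of dim probe sets, and readings with a mean below 61.4 were not tested.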
